A study of Homo sapiens with 16 samples.

Results

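Irradiated and mock-treated LNCaP cells of the first experimental batch were compared for nascent transcription, with attention to genes outside 3 lists: p53 targets, G2/M cell cycle genes and histone genes. The comparison used 8 of the 16 libraries of the series, chosen by their labels: 4 of cells given 6 Gy of ionizing radiation and 4 of mock-treated cells. LNCaP is an established human prostate cancer cell line that expresses the androgen receptor, and no genetic change was made to it per the labels. Batch 1 labels say mock or 6 Gy only, and name no vehicle. The treatment protocol shared by all samples of the series describes collection 60 min after irradiation. A second batch held 2 vehicle libraries and 2 libraries of cells given vehicle and 6 Gy, and was set beside batch 1 where stated. Each arm of batch 1 had replicate numbers 1 and 2, each with a library called t1 and one called t2, which the labels do not explain. Counts of t1 and t2 were summed, so each arm had 2 replicates.

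PRO-seq is a nuclear run-on assay in which engaged RNA polymerases add a labelled nucleotide, so that reads mark transcription in progress rather than stored RNA. Ionizing radiation breaks DNA, the kinase ATM signals the break, and p53 is stabilised and activates genes of cell cycle arrest, repair and death. LNCaP cells retain p53 that can activate its targets. A gene absent from the p53 list can still be a p53 target, because any such list is a selection.

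Mock replicates held 8022989 and 9216926 counts after summing and irradiated replicates 12619248 and 16851473, and single libraries held 3438642 to 9363458. The labels do not say whether replicates came from separate cultures, so p-values measure only the spread between these samples, which may be technical. In bulk libraries a change in the share of cells that transcribe a gene and a change of transcription per cell cannot be told apart. CDKN1A, which encodes the cell cycle inhibitor p21 and served to check the labels, had 43.1 and 47.0 CPM (counts relative to library size, scaled by TMM) in mock and 549 and 582 in irradiated cells. The 12 luminal prostate and LNCaP markers summed to 3230 to 3780 CPM per replicate, and markers of basal, stromal, endothelial, immune or neuroendocrine cells to between 17.5 and 61.6 CPM per type. LUM, PTPRC, LYZ, HLA-DRA, CHGA and INSM1 stayed below 0.5 CPM, and no basal or endothelial marker did. The highest single marker reached 60.4 CPM for immune, 31.4 for endothelial, 19.4 for basal, 17 for neuroendocrine and 10.6 for stromal cells.

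The t1 and t2 libraries stood apart from each other. Across 25889 genes, the irradiated-to-mock log2 ratio in t1 and that in t2 had a correlation of -0.344, over genes of the same cells and with no independent replicates. Mitochondrially encoded genes took 4.25% and 5.06% of counts in mock t1 and 3.24% and 3.94% in mock t2, but 2.87% and 2.86% in irradiated t1 and 5.38% and 4.47% in irradiated t2. The order of t1 and t2 was thus opposite in the arms. The mock replicate 2 t2 library was more than 2 times the next highest of the 8 libraries at 36 of 21577 genes above 2 CPM, against 2 to 8 genes for each other library. The part of these patterns in the results was not tested. Values per library are given for the genes the results turn on. Calls lost without the mock replicate 2 t2 library are named for genes picked by size or as called members of a list. They are not named gene by gene for neighbours of p53-list genes or for genes picked after their values were seen. Off the lists, 106 rises and 0 falls passed without it.

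Of 25889 genes tested, 519 (2.00%) were higher and 212 (0.819%) lower after 6 Gy at an edgeR adjusted p under 0.05. The p53 list gave 117 higher and 2 lower of 259 tested, the G2/M list 1 higher and 83 lower of 188, and the histone list none higher and 32 lower of 94. A further 401 higher and 96 lower genes, of 25350 tested, lay on none of these lists. By RefSeq class the 401 rises held 239 protein-coding genes, 47 long non-coding RNAs and 3 miRNA genes, and 91 had no symbol. The 96 falls held 53 protein-coding genes and 10 long non-coding RNAs, and 29 had no symbol. Classes were not counted over all genes tested, so no share stands beside these numbers.

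Rises and falls off the lists differed in how they were carried by the libraries. All 4 irradiated libraries lay above all 4 mock libraries at 347 of the 401 rises, and at 3.39% of all genes tested. They lay below all mock libraries at 53 of the 96 falls, and at 2.16% of all genes. Rises and falls were called on sums of these same libraries, so the shares over all genes are not a like comparison. In 14 of the 96 falls, 1 mock library was more than 2 times the next mock library, and in 10 of these it was replicate 2 t2. Among the rises, 1 irradiated library stood out in this way at 2 of 401 genes. With mock replicate 2 represented by its t1 library alone, 106 rises and 0 falls off the lists passed in edgeR. They were among 211 calls and 1425 genes at an unadjusted p under 0.05. This also lowered its depth and set a t1 library beside sums of t1 and t2. The SE grew from 0.103 to 0.144 for the rise of ISG20 and from 0.110 to 0.157 for the fall of KLF6. What lost the calls, the absent library, depth or the uneven t1 and t2, cannot be told apart. The other alternatives called between 7 and 4582 falls off the lists. Leaving out mock replicate 1, mock replicate 2 or irradiated replicate 1 gave 195, 640 and 199 of them, and DESeq2 gave 59.

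Genes named by size had a mean of at least 50 counts per replicate, replicates that did not overlap and 1 direction in t1 and t2. The called genes EML2-AS1 and MIR3189 rose more, by log2 fold changes of 6.88 and 3.16, but did not meet these conditions. Under them the 12 largest rises with a symbol held 7 long non-coding RNAs, 4 protein-coding genes and 1 miRNA gene, again with no share over all genes tested. TNFSF8, which encodes the ligand of the receptor CD30, had 5.72, 4.02, 5.76 and 4.39 CPM in the mock libraries (replicate 1 t1 and t2, then replicate 2) and 37.1, 30.0, 51.1 and 28.8 in the irradiated ones. The arms did not overlap, and the log2 fold change was 2.88 ± 0.157 (SE; edgeR adjusted p = 4.7e-07). FRMPD2, a scaffold protein with FERM and PDZ domains, rose from 27.1 and 36.6 to 167 and 186 CPM. The secreted lipocalin APOD rose from 1.25 and 1.87 to 8.44 and 7.25 CPM, and MAPK11, which encodes the stress kinase p38 beta, from 2.63 and 3.29 to 13.3 and 13.7. Their log2 fold changes were 2.46, 2.3 and 2.18. The irradiated libraries of each of these genes were all above its mock libraries.

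GAS6-AS1 had the highest CPM after irradiation of the 12 largest rises with a symbol, on a scale not divided by gene length. It lies on chromosome 13 at 113815610 to 113842841 (RefSeq, GRCh38.p14) and overlaps GAS6, which encodes a ligand of the TAM receptor kinases. GAS6-AS1 had 131, 96.6, 117 and 92.5 CPM in mock and 612, 936, 685 and 758 CPM in irradiated libraries, a log2 fold change of 2.76 ± 0.149 (edgeR adjusted p = 4.69e-07). GAS6 itself had 49.8 and 50.1 CPM in mock and 191 and 175 CPM in irradiated replicates, a log2 fold change of 1.87. Use of strand in counting is not given, so reads where the genes overlap cannot be told apart. The same holds for MIR1289-1, a miRNA gene inside GDF5 on chromosome 20, which rose from 0.625 and 2.20 to 11.8 and 10.7 CPM. GDF5, a ligand of the BMP family, rose from 47.6 and 41.5 to 157 and 138 CPM, and CEP250, a centrosome linker protein gene 416 bases from it, from 64.8 and 67.1 to 134 and 156.

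The rest of the 12 largest rises with a symbol were long non-coding RNAs. LINC00663 went from 20.5 and 15.5 to 121 and 107 CPM, a log2 fold change of 2.67, and HELZ-AS1 from 6.50 and 5.82 to 25.3 and 25.0 CPM, a log2 fold change of 2.03. CLDN10-AS1 (2.69), LINC02875 (2.50), LINC02846 (2.22) and LINC01460 (2.11, all log2 fold changes) were below 3 CPM in every mock library. Of genes with no symbol, ENSG00000203593 and ENSG00000224818 rose most, by log2 fold changes of 3.36 and 3.25. All 14 of these genes kept their direction and passed the threshold in each of the 15 alternative analyses.

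**Figure D1:**
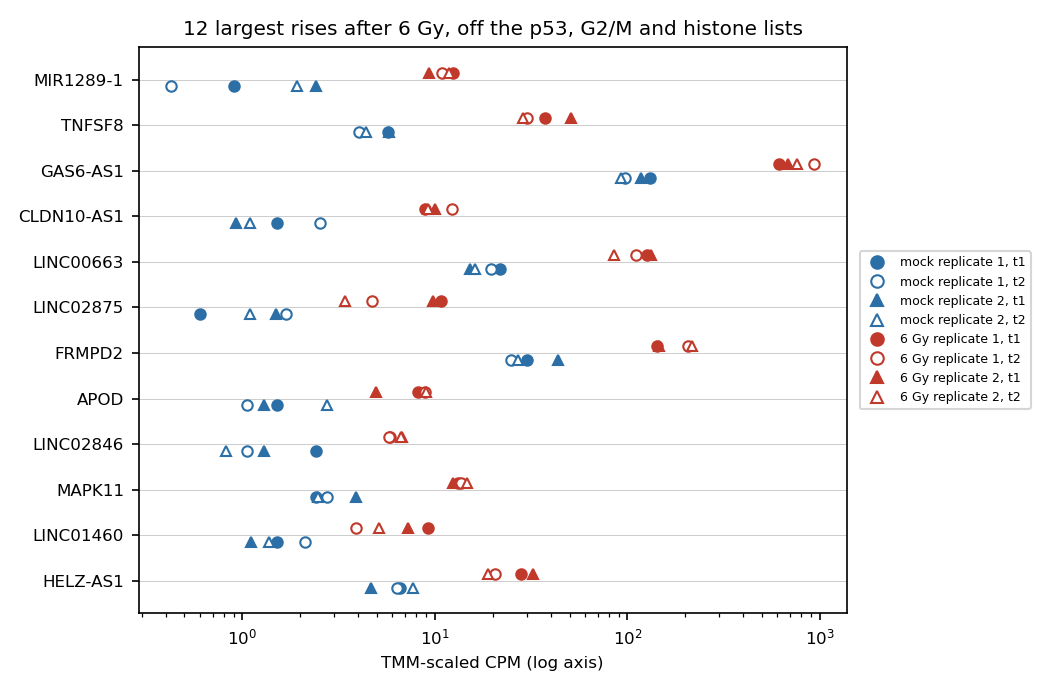
TMM-scaled CPM (log axis) in each of the 8 libraries of the 12 largest rises off the p53, G2/M and histone lists that met the conditions for naming. Blue marks mock, red 6 Gy, circles replicate 1, triangles replicate 2, filled t1 and open t2. In every row the 4 red points lie to the right of the 4 blue points, as for TNFSF8 with 4.02 to 5.76 against 28.8 to 51.1 CPM.

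Further rises were picked after their values were seen, by the role of the protein. Among ligands and receptors, EDN2, which encodes an endothelin, rose from 11.1 and 15.8 to 41.0 and 40.7 CPM, and the Notch ligand JAG1 from 56.4 and 56.0 to 95.7 and 96.3. TNFSF15, a cytokine gene of the same family as TNFSF8, rose from 5.13 and 5.38 to 11.4 and 13.3 CPM, and S1PR3, a receptor for sphingosine 1-phosphate, from 19.4 and 16.8 to 35.5 and 37.1. STAT6, the transcription factor downstream of interleukin-4, rose from 17.8 and 16.7 to 57.8 and 57.7 CPM. Its log2 fold change was 1.75 ± 0.114 (edgeR adjusted p = 1.85e-06), and its 4 mock libraries, 13.2 to 20.8 CPM, lay below its irradiated ones, 49.3 to 67.6 CPM.

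Among enzymes, CES2, a carboxylesterase that hydrolyses drug esters, had 22.1 and 19 CPM in mock and 62.1 and 72.3 CPM in irradiated replicates, a log2 fold change of 1.71 ± 0.126 (edgeR adjusted p = 5.37e-06). GPX1, a glutathione peroxidase, rose from 50.3 and 45.1 to 99 and 86.8 CPM, but its irradiated t2 libraries, at 61.8 and 47.8 CPM, overlapped the mock t2 libraries at 59.9 and 69.7. Structural genes among the rises were LMNA, which encodes the nuclear lamins A and C, from 67.8 and 53.5 to 139 and 143 CPM, and WDR1, an actin disassembly factor, from 64.4 and 61.8 to 110 and 107. The cell polarity gene SCRIB rose from 18.6 and 16.8 to 46.5 and 51.9 CPM. BTG3, an antiproliferative gene, went from 18.8 and 18.1 to 40.7 and 46.3 CPM. UBE2D4, a ubiquitin-conjugating enzyme, passed the test with 89.3 and 100 CPM against 41.1 and 40.6, yet its irradiated libraries held 119, 39.9, 33.5 and 153 CPM and overlapped the mock range of 31.2 to 55.5.

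Promoters of the rises were searched for the p53 consensus element, 2 abutting 10-base parts, with at most 3 of 20 letters differing and none at the invariant C and G of each part. The consensus is its own reverse complement, so the search covered both strands. In windows of 250 bases before to 50 after the RefSeq start, it was found in 17 of 221 off-list rises (7.69%), 2 of 49 off-list falls (4.08%), 19 of 98 called p53-list rises (19.4%) and 373 of all 27305 promoters (1.37%). A match describes letters and not a bound site, and the allowed differences were set after earlier values were known. Upstream of the start there were 13 matches among the rises. The 6 printed below were picked after their values were seen, to show matches with 0 to 3 differing letters in genes of different function. The element is in capitals, the strand is that of the gene, and the sequences are from RefSeq, GRCh38.p14.
LNCTAM34A, chr1:9182124-9182183, plus strand: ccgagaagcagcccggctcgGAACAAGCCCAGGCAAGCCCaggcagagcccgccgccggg
IGFBP2, chr2:216659505-216659564, plus strand: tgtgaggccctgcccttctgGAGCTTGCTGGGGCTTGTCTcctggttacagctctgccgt
GPX1, chr3:49358501-49358560, minus strand: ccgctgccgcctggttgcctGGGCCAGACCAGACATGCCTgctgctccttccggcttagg
UBASH3B, chr11:122655641-122655700, plus strand: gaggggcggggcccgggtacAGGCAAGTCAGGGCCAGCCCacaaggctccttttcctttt
BLNK, chr10:96271714-96271773, minus strand: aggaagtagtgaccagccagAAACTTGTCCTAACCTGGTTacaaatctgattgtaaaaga
CES2, chr16:66935382-66935441, plus strand: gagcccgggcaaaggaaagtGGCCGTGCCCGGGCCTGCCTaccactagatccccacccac

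The number of differing letters was 0 in LNCTAM34A, 1 in IGFBP2, 2 in GPX1 and UBASH3B, and 3 in BLNK and CES2. LNCTAM34A is a long non-coding RNA that starts head to head with the host gene of the miRNA miR-34a, a known p53 target. It rose from 56.5 and 55.4 to 136 and 151 CPM, a log2 fold change of 1.36 ± 0.114 (edgeR adjusted p = 1.67e-05). BLNK, an adaptor of B cell receptor signalling, rose from 25.8 and 26.5 to 63.2 and 64.8 CPM, and UBASH3B, a tyrosine phosphatase gene, from 5.13 and 5.82 to 12.1 and 12.2. IGFBP2, which encodes a binding protein of insulin-like growth factors, had the smallest change of the 6, from 31.4 and 28.7 to 41.7 and 41.0 CPM.

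Some rises off the lists lay beside a called gene of the p53 list. Of 310 off-list rises with a RefSeq position, 22 (7.1%) were within 10 kb of a called p53-list gene and 13 overlapped one, against 0 of 66 off-list falls and 121 of 19610 off-list genes tested (0.617%). Of those 121 neighbours, 22 (18.2%) were called higher, 0 lower, and the median log2 fold change was 0.139. The distance was chosen with the data known. ACTA2, smooth muscle actin, overlaps the death receptor gene FAS and rose from 8.50 and 8.12 to 24.2 and 23.3 CPM, a log2 fold change of 1.51 against 2.58 for FAS. NDUFAF6, an assembly factor of respiratory complex I, overlaps TP53INP1 and rose from 230 and 242 to 465 and 467 CPM, a log2 fold change of 0.98 against 1.73. MAPK11 lies 4599 bases from the plexin gene PLXNB2, and their log2 fold changes were 2.18 and 2.14. XPO5, which exports miRNA precursors, lies 147 bases from the translesion polymerase gene POLH and changed by 0.48 against 1.74. It did not rise in both the t1 and the t2 libraries. TRAF3IP2-AS1 and GDNF-AS1 changed more than their listed neighbours, by 1.54 against 0.98 for REV3L and by 1.92 against 0.90 for GDNF. So did MIR3189 (3.16 against 1.87 for GDF15), DEAF1 (0.93 against 0.78 for EPS8L2) and PANK1-AS1 (0.96 against 0.89 for PANK1). ZNF561-AS1 (0.49 against 0.45 for ZNF561) and MAPK11 were also above their neighbours, by little. Reads that cross from one gene into the other cannot be told apart here. Without the mock replicate 2 t2 library 11 of the 22 passed in edgeR, and in the other alternatives 16 to 22.

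**Figure D2:**
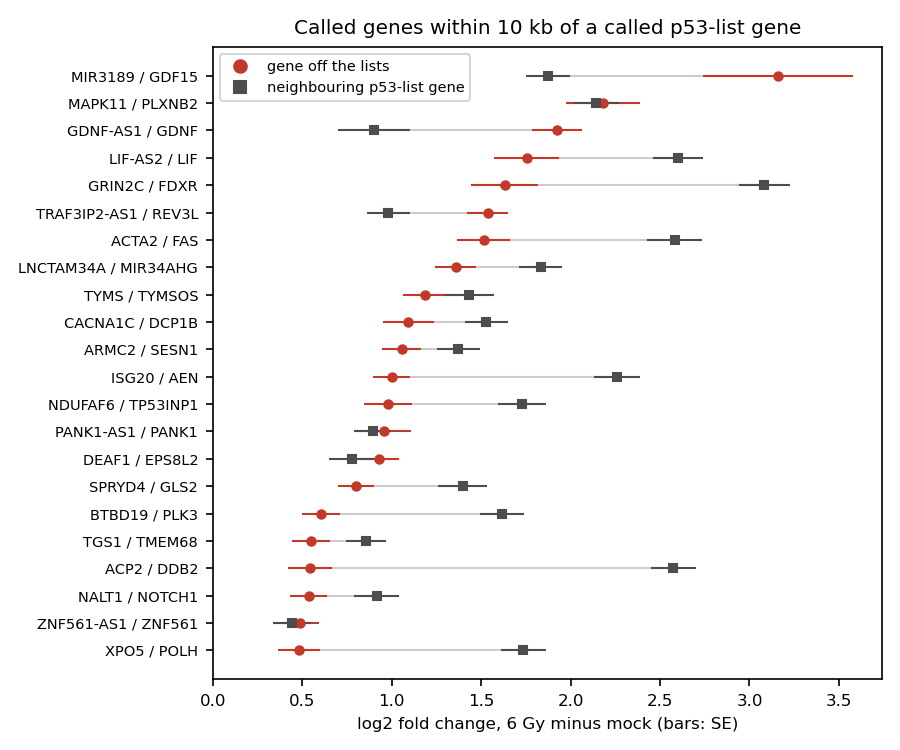
log2 fold change (6 Gy minus mock, edgeR, bars are SE) of the 22 off-list rises within 10 kb of a called p53-list gene (red circles) and of that neighbour (grey squares). The listed neighbour lies to the right in most rows, as for ACTA2 at 1.51 and FAS at 2.58. It lies to the left in the others, such as GDNF-AS1 at 1.92 and GDNF at 0.90.

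Some called off-list genes lay near each other. Of 23 pairs of called off-list genes within 10 kb of each other, 20 were both higher, 3 both lower and 0 opposite, where rises outnumber falls 401 to 96. The same count over all off-list genes tested was not made, so no share stands beside these numbers. Some genes stand in several pairs, such as GDF5 with both MIR1289-1 and CEP250, and TMEM217 and TMEM217B have the same position. In 11 of the 23 pairs the genes overlap, so that the same reads may count for both. Pairs with both higher included GAS6 with GAS6-AS1, and COL4A6 with COL4A5, which encode chains of basement membrane collagen. The pairs with both lower were CDKN1B with APOLD1, PLCXD2 with PHLDB2, and TM4SF1 with TM4SF1-AS1.

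The mock libraries of the largest falls differed widely from each other. KRT39, a type I keratin of hair, had 1.81, 101, 6.32 and 747 CPM in the mock libraries and 3.95, 2.26, 1.61 and 8.13 in the irradiated ones. Its log2 fold change was -5.37 ± 0.614 (edgeR adjusted p = 0.000202), while the mock replicate 1 t1 library lay within the irradiated range. KIFC3, a minus-end-directed kinesin, had 113 CPM in mock replicate 2 t1 and 7.53 to 12.4 in the other mock libraries, against 6.53 to 10.9 after irradiation. LINC02672 was likewise at 210 CPM in mock replicate 2 t1 and at 30.7 to 48.3 CPM in the other mock libraries. POPDC3, a membrane protein that binds cyclic AMP, had 385, 86.6, 29.4 and 214 CPM in mock and 33.5 to 48.8 in irradiated libraries. PLCXD2, which encodes a protein with a phospholipase C domain, had 413 CPM in mock replicate 2 t2 and 50 to 117 CPM in the other mock libraries, against 43.7 to 52.0 CPM after irradiation. The arms of all 5 genes overlapped.

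PRKG1, a cyclic GMP-dependent protein kinase, had 52.4, 143, 38.1 and 274 CPM in the mock libraries and 30.7 to 65.2 in the irradiated ones, with both mock t2 libraries above all the others. CADPS, a factor of dense-core vesicle release, fell by 1.27 on the log2 scale, LRMDA by 1.23 and LRAT, which makes retinyl esters, by 1.34. Their arms overlapped, too. With no symbol, ENSG00000227706 and ENSG00000286851 fell by 3.44 and 3.04, with 58.2 and 74.4 CPM in mock replicate 2 t2. The remaining 3 of the 12 largest falls with a symbol had arms that did not overlap. PHLDB2, a protein of the cell cortex, had 107, 33.3, 35.7 and 401 CPM in mock and 16.7 to 32.7 CPM in irradiated libraries. DNASE1L3, a secreted DNase, had 43.3, 31.6, 37.3 and 76.6 CPM against 9.14 to 29.4 CPM. The long non-coding RNA SAP30-DT had 8.13, 8.47, 7.06 and 4.94 CPM against 2.88 to 3.64 CPM. All 14 of these falls missed the threshold without the mock replicate 2 t2 library, DNASE1L3 with a log2 fold change of -1.14 (edgeR adjusted p = 0.108) and SAP30-DT with -1.25 (edgeR adjusted p = 0.0975). The change was larger there for KIFC3 (-2.87), LINC02672 (-2.43), LRAT (-1.60) and SAP30-DT, and smaller for the others, such as PLCXD2 (-0.44) and LRMDA (-0.21). With mock replicate 2 left out as a whole, 13 of the 14 passed, among them KRT39 (-3.78), POPDC3 (-2.32) and PRKG1 (-1.12), and KIFC3 did not (-0.31, edgeR adjusted p = 0.545). In that fit the lone mock sample is assumed to vary like the irradiated ones.

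**Figure D3:**
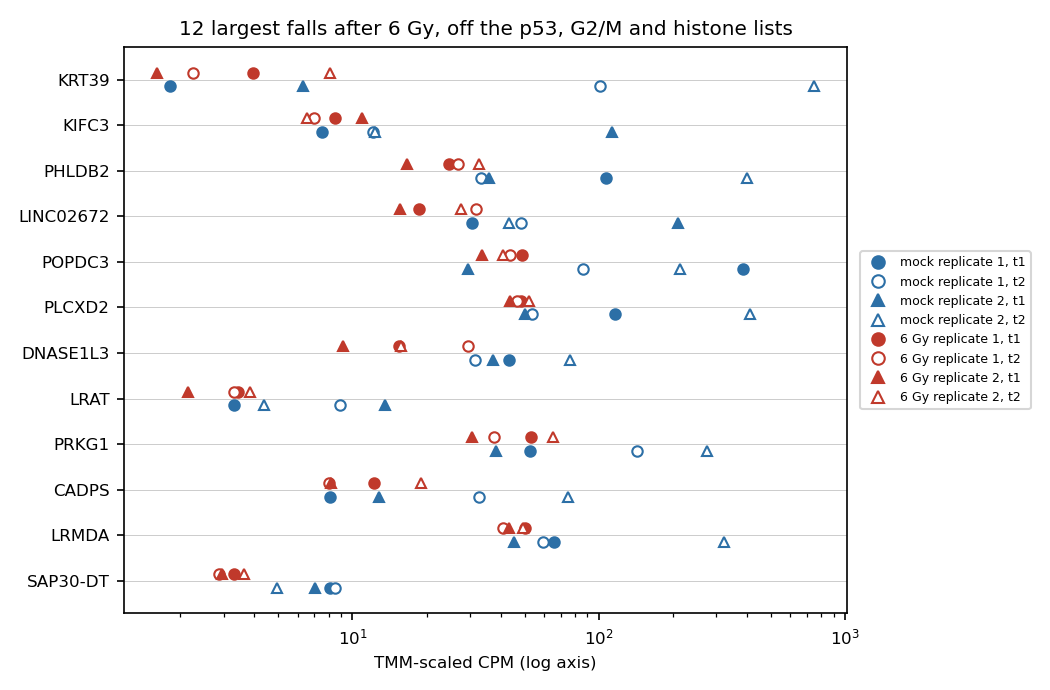
TMM-scaled CPM (log axis) of the 12 largest falls off the 3 lists in each of the 8 libraries, with the same symbols as in the plot of rises. The blue points of most genes are spread widely, as for KRT39 with 1.81 to 747 CPM, against 1.61 to 8.13 for its red points; the arms are apart only for PHLDB2, DNASE1L3 and SAP30-DT.

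Other falls had separate arms with smaller changes. KLF6, a transcription factor induced early by serum and stress, had 42.4, 44.5, 37.0 and 53.5 CPM in mock and 20.2, 28.6, 24.1 and 23.3 CPM in irradiated libraries. Its log2 fold change was -0.88 ± 0.110 (edgeR adjusted p = 0.0004). TGIF1, a corepressor of TGF-beta signalling, had 115 to 181 CPM in mock and 64.3 to 94.9 CPM in irradiated libraries, a log2 fold change of -0.94. CDKN1B, which encodes the cyclin-dependent kinase inhibitor p27, had 79.3 to 112 CPM against 60.5 to 73.9, a log2 fold change of -0.55, and its neighbour APOLD1 fell by 0.55. NUAK2, a kinase of the AMPK family, and GPSM2, which orients the mitotic spindle and could be placed with the G2/M genes, were picked after their values were seen. NUAK2 fell from 47.8 and 51.9 to 33.0 and 30.7 CPM and GPSM2 from 26.1 and 30.3 to 12.5 and 15.6. No fall off the lists passed without the mock replicate 2 t2 library, so NUAK2, GPSM2 and APOLD1 did not pass there. Without the mock replicate 2 t2 library KLF6, TGIF1 and CDKN1B had log2 fold changes of -0.78, -0.89 and -0.49 and edgeR adjusted p of 0.102, 0.198 and 0.669. CDKN1B also missed the threshold without irradiated replicate 1 or 2, at edgeR adjusted p of 0.0999 and 0.126.

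At most 2 genes passed in either direction on each list of other pathways. Over all genes tested, 2.00% were called higher and 0.819% lower, so a short list without a call says little about its pathway. Over all genes tested the median log2 fold change was -0.002. None of 125 tested genes on the DNA repair and damage signalling list passed, with a median of 0.026 and a range of -0.49 to 0.29. Repair genes held on the p53 list, such as DDB2 and XPC, both called higher, are not counted among these 125. ATM, the kinase that signals double-strand breaks, had 70.9 and 72.9 CPM in mock and 64.9 and 73.1 in irradiated cells. BRCA1, a factor of homologous recombination, had 102 and 109 against 109 and 106 CPM. PRKDC, the catalytic subunit of DNA-PK, had 189 and 226 against 227 and 242 CPM. The repair list had 0 calls, but t1 libraries alone gave it a median of -0.07 and t2 libraries alone 0.17.

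Replication and E2F target genes had 2 called higher of 66 tested, 53 with a positive log2 fold change and a median of 0.10, where 12838 of all 25889 genes were positive and 2.00% were called higher. The called genes were TYMS, thymidylate synthase, from 76.3 and 65.1 to 158 and 164 CPM (log2 fold change 1.19, edgeR adjusted p = 8.57e-05), and GINS4, a part of the replicative helicase, from 34.9 and 32.7 to 52.1 and 46.4. TYMS overlaps TYMSOS, a called gene of the p53 list with a log2 fold change of 1.43. Of 21 G1 cyclins, kinases and inhibitors, RBL2, a pocket protein related to RB, rose from 51.9 and 68.2 to 83.6 and 106 CPM, and CDKN2C, which encodes the inhibitor p18, and CDKN1B fell. CDKN2C had 39.5 and 34.4 CPM in mock and 25.4 and 18.2 CPM in irradiated replicates. CCND1, cyclin D1, had 216 and 171 against 192 and 198 CPM and did not pass. Without the mock replicate 2 t2 library GINS4, RBL2 and CDKN2C missed the threshold, at edgeR adjusted p of 0.283, 0.797 and 0.869. GINS4 also missed it without irradiated replicate 1 (edgeR adjusted p = 0.137), and RBL2 and CDKN2C without irradiated replicate 2 (0.215 and 0.0997).

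Inflammatory and interferon genes had 1 call each. Of 28 NF-kappa-B targets NFKBIE, an inhibitor of NF-kappa-B, was called with 17.8 and 12 against 26.0 and 23.4 CPM, yet its t2 libraries held 20.8 and 16.2 CPM in mock and 13.1 and 11.7 in irradiated cells, the opposite order to t1. NFKBIE missed the threshold without the mock replicate 2 t2 library (edgeR adjusted p = 0.558) and without mock replicate 2 (0.0961). NFKBIA had 70.9 and 66.5 against 67.7 and 51.3 CPM and did not pass. Of 42 interferon and DNA sensing genes, the exonuclease ISG20 rose from 38.2, 40.2, 45.7 and 36.5 to 72.3, 91.2, 76.2 and 87.3 CPM. Its log2 fold change was 1.00 ± 0.103 (edgeR adjusted p = 8.94e-05), and it lies 3351 bases from AEN, a p53-list nuclease gene with 2.26. The APOBEC3 list held 5 cytidine deaminase genes and left out APOBEC3H, which is on the p53 list. APOBEC3H was called higher, from a mean of 0.674 to 6.76 CPM (log2 fold change 3.25, edgeR adjusted p = 0.000272). The 5 listed genes all had positive log2 fold changes, from 0.16 to 0.59, none past the threshold. The median of these 5 genes was 0.38, with 0.64 in t1 libraries alone and -0.25 in t2 libraries alone.

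Immediate early genes, which respond first to growth signals and stress, had 2 called lower of 35 and a median of -0.13. Beside KLF6 this was FOSB, a part of the AP-1 factor, with 33.7, 52.5, 16.7 and 50.5 CPM in mock and 20.4 to 26.7 CPM in irradiated libraries, which overlapped. The t1 libraries alone gave the list a median of 0.27 and the t2 libraries alone -0.62. MYC had 243 and 252 against 205 and 201 CPM, JUN 188 and 173 against 165 and 165, FOS 35.9 and 24.2 against 23.8 and 16.9, and EGR1 9.63 and 12.3 against 9.63 and 9.64. None of these 4 passed, although the irradiated libraries of MYC, 180 to 225 CPM, lay below its mock libraries, 232 to 257. In the feedback genes of TGF-beta, BMP and WNT signalling, TGIF1 and ID1, a BMP-induced inhibitor of differentiation factors, were the 2 called lower of 25. ID1 had 151 and 122 against 91.2 and 72.5 CPM, with 1 mock library, at 79.3 CPM, inside the irradiated range. FOSB and ID1 missed the threshold without the mock replicate 2 t2 library, each at an edgeR adjusted p of 1. FOSB also missed it without mock replicate 1 (edgeR adjusted p = 0.199) and ID1 without irradiated replicate 2 (0.189).

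Androgen receptor targets had 1 called lower of 59 tested, 10 with a positive log2 fold change, against 12838 of all 25889 genes, and a median of -0.16. The called gene, TRPM8, a cold-gated channel, had 45.8 and 46.8 against 33.4 and 34.8 CPM and turned its direction in the t2 libraries. It missed the threshold without the mock replicate 2 t2 library (edgeR adjusted p = 0.313) and without mock replicate 2 (0.0576), irradiated replicate 1 (0.272) or irradiated replicate 2 (0.204). KLK3, which encodes PSA, had 181 and 178 against 152 and 135 CPM and did not pass. The median of the list was -0.36 in t1 libraries alone and 0.11 in t2 libraries alone.

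Of the remaining lists, HSD17B7, a sterol synthesis enzyme, was the 1 called of 32 and rose from 32.3 and 22.4 to 57.7 and 63.3 CPM. TEF was the 1 of 22 circadian genes called, from 44.0 and 46.7 to 65.6 and 62.5 CPM. BNIP3, which promotes mitophagy, was the 1 called of 36 apoptosis regulators off the p53 list, from 46.0 and 45.2 to 62.3 and 60.7. On the p53 list, the apoptosis genes BBC3, BAX and FAS were called higher, and APAF1, CASP8 and BCL2L11 were not called. RPS19, also on the p53 list, rose from 70.0 and 74.1 to 130 and 135 CPM, and RPL3L, a muscle paralog of RPL3, fell from 30.8 and 18.7 to 13.7 and 10.4, of 82 ribosomal protein genes. Without the mock replicate 2 t2 library HSD17B7, TEF, BNIP3, RPS19 and RPL3L missed the threshold, at edgeR adjusted p of 0.0626, 0.319, 0.328, 0.0908 and 0.195. TEF and BNIP3 also missed it without irradiated replicate 1 (edgeR adjusted p = 0.113 and 0.218) or 2 (0.0689 and 0.233). The ribosomal protein list had 70 positive log2 fold changes, against 12838 of all 25889 genes, and a median of 0.11, which was 0.51 in t1 libraries alone and -0.33 in t2 libraries alone. No gene passed among 38 integrated and ER stress genes, 27 heat shock genes, 28 NRF2 antioxidant genes, 39 genes of polymerase pausing and elongation, 25 snoRNA hosts, 41 autophagy and lysosome genes, or 37 mitochondrially encoded genes. ATF4, the effector of the integrated stress response, had 463 and 317 against 345 and 302 CPM, HEXIM1, an inhibitor of the elongation kinase P-TEFb, 301 and 208 against 265 and 277, and HSP90AB1, a chaperone, 280 and 196 against 291 and 248. In these 3 genes the mock replicates differed from each other by more than the arms did on average. GDF15 and SESN2, both called higher, were on the p53 list and not on the stress list. ATF3 of the p53 list did not pass.

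**Figure D4:**
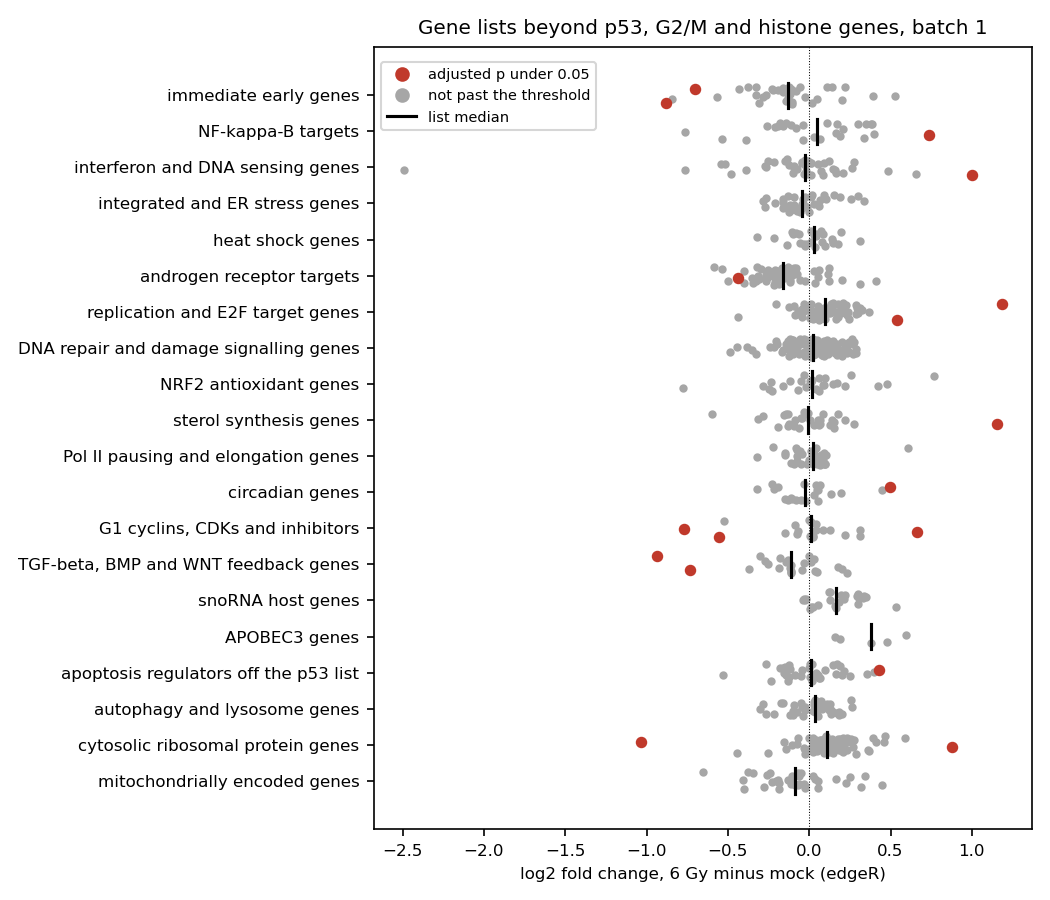
log2 fold change (6 Gy minus mock, edgeR, summed replicates) of each tested gene of 20 lists; red points have an adjusted p under 0.05, and black bars are list medians. Most points lie close to 0, and the red points include TYMS at 1.19 and KLF6 at -0.88. No gene of the DNA repair list is red (range -0.49 to 0.29). Repair genes held on the p53 list, such as DDB2, are not drawn.

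Batch 2 gave the same direction at most rises. In vehicle cells of that batch 278 genes (0.996%) were higher and 176 (0.630%) lower after 6 Gy of 27916 tested. Of the 401 off-list rises of batch 1, 388 were tested in batch 2, 360 had the same direction, 138 were called higher there and 0 lower. The median log2 fold change of those tested was 0.88 in batch 1 and 0.42 in batch 2. These genes were picked by their batch 1 values, so the medians of the batches are not like for like. Shared direction between the batches was not counted over all genes. Of the 96 falls, 92 were tested, 72 had the same direction, 17 were called lower and 6 higher. Of the 53 falls with separate libraries in batch 1, 50 were tested, 48 had the same direction, 13 were called lower and 1 higher. The 6 opposite calls were KRT39, POPDC3, FAM124B, DNASE1L3, GOLGA1 and COL27A1, and the falls called in batch 2 as well included KLF6 (-0.77), TGIF1 (-0.65), CDKN2C (-0.64), NUAK2 (-0.52) and CDKN1B (-0.42, log2 fold changes in batch 2).

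The difference of the response between the batches passed the threshold at 31 of 29195 genes (0.106%), and at 13 of the 401 rises and 8 of the 96 falls. Those rises and falls were picked by their batch 1 values, so the share over all genes is not a like comparison for them. CES2 was among the rises that were larger in batch 1, with a log2 fold change of 0.77 in batch 2 and a difference of 0.91 (edgeR adjusted p = 0.0314). YBX3, a cold shock domain RNA-binding protein picked after its values were seen, had 50.1 and 44.2 against 125 and 113 CPM in batch 1 and 53.9 and 48.3 against 62.8 and 60.1 CPM in batch 2, a difference of 1.04 in log2 fold change (edgeR adjusted p = 0.00487). CLDN10-AS1 rose in batch 1 from 2.13 and 0.988 to 10.3 and 9.58 CPM, and in batch 2 had 2.05 and 1.64 CPM in vehicle and 2.10 and 1.77 in irradiated cells. POPDC3 had 16.6 and 15.4 against 28.3 and 41.7 CPM in batch 2, and DNASE1L3 3.5 and 3.23 against 6.16 and 10.7, the opposite order to batch 1. GOLGA1 had 3079 and 3758 CPM in mock and 1846 and 1841 CPM in irradiated replicates of batch 1, and 533 and 572 CPM in vehicle and 857 and 1112 in irradiated cells of batch 2. Experimental batch, depth and any unstated difference in treatment cannot be told apart in these values.

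**Figure D5:**
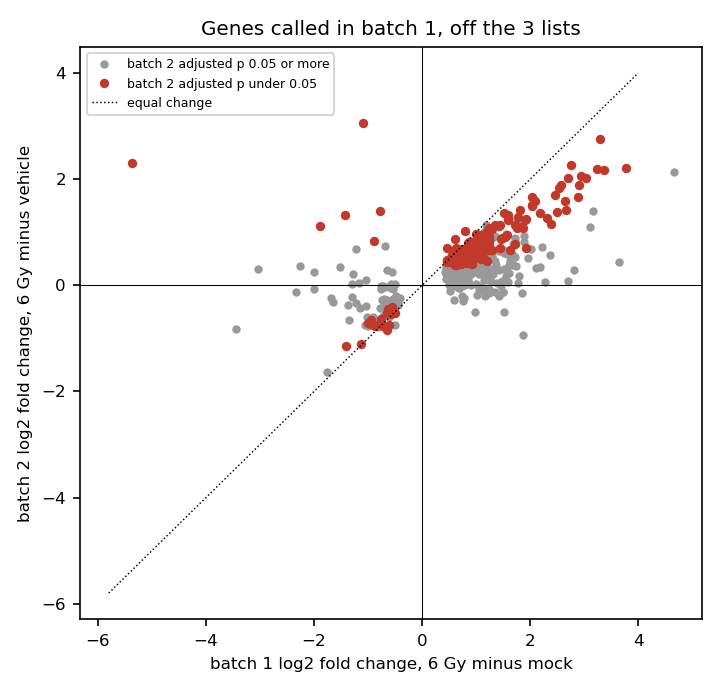
log2 fold change after 6 Gy in batch 1 (x axis) and in vehicle cells of batch 2 (y axis) of genes called in batch 1 off the 3 lists; red points have an adjusted p under 0.05 in batch 2, and the dotted line marks equal change. Of 388 rises tested 360 lie above 0 on the y axis, and 6 falls are red above 0, with KRT39 far to the left at -5.37.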

How the data were processed

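The authors deposited a table of read counts per Ensembl gene for each batch. The values are whole numbers with different totals per library. The submitters' processing notes name cutadapt 1.8.1, Bowtie2 2.4.4, SAMtools 1.9 and the build hg38, with no role given. The counting tool, annotation release, use of strand and treatment of duplicates are not given in the sources used here. Of 60605 identifiers, 60463 (99.8%) were in the gene name table used. Positions and promoters came from RefSeq on GRCh38.p14.

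Counts of t1 and t2 with the same replicate number were summed. Genes were kept by filterByExpr, scaled by TMM and tested with edgeR 4.0.16 (glmQLFit and glmQLFTest, two-sided, 2 replicates per arm, Benjamini-Hochberg over all genes tested, threshold 0.05) in R 4.3.3. The batch 2 values come from a fit of its own 4 samples, and the difference between batches from an interaction term. The SE of a log2 fold change is its size over the root of its F statistic. The ratios within t1 or t2 that served to pick named genes used a pseudocount of 0.5 CPM. The code was tested on simulated counts.

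The genes named are the 12 largest rises and 12 largest falls among called genes off the 3 lists with a symbol, a mean of at least 50 counts per replicate, replicates that do not overlap and 1 direction in t1 and t2. Added were 2 genes without a symbol in each direction, up to 3 called members of each list in each direction (else the 2 most transcribed), a fixed panel, and genes whose difference between batches passed. Other genes were picked after their values were seen, as were the neighbour distance, the promoter search, the counts over single libraries and 2 alternatives. The members and lists were chosen with earlier results of these data known. Alternatives were RLE factors, total counts, counts without mitochondrial genes, no filter, DESeq2 1.42.0, a replicate block, each replicate left out, t1 or t2 libraries alone, and models of the 8 unsummed libraries. A planned check of gene length was void, since 77.8% of genes tested had a RefSeq length, under the 80% set for it. Some planned results are not reported here.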

Additional observations from a re-analysis of the deposited data

Results flagged for a closer look

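At 4 of the genes named, the response to 6 Gy differed between the batches by an edgeR interaction test over all genes. CLDN10-AS1 had a log2 fold change of 2.69 in batch 1 and 0.08 in batch 2, a difference of 2.58 ± 0.435 (SE, adjusted p = 0.0206). KRT39 had -5.37 and 2.31, a difference of -7.71 ± 1.04 (adjusted p = 0.00252), with 747 CPM in 1 mock library of batch 1 and 12.1 CPM in 1 irradiated library of batch 2. POPDC3 had -1.89 and 1.12, a difference of -3.05 ± 0.336 (adjusted p = 0.000351). DNASE1L3 had -1.43 and 1.32, a difference of -2.77 ± 0.363 (adjusted p = 0.00232). CLDN10-AS1 missed the threshold without mock replicate 2 (edgeR adjusted p = 0.0859) and without irradiated replicate 4 of batch 2 (0.076). KRT39 missed it without that same replicate (-6.28, edgeR adjusted p = 0.254) and with the t1 libraries of batch 1 alone (-3.03, 0.0716). POPDC3 and DNASE1L3 passed in each of the alternatives run for this difference. Mock replicate 2 from its t1 library alone was not among them. In that fit of batch 1 the falls of POPDC3 and DNASE1L3 missed the threshold (edgeR adjusted p = 0.933 and 0.108). With 2 replicates per arm, no test for a sample far from the others was run.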

How the results depend on the processing

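All 14 rises named by size, with or without a symbol, kept their call under the 15 alternatives, and all 14 falls missed the threshold when mock replicate 2 was represented by its t1 library, where the change grew for KIFC3, LINC02672, LRAT and SAP30-DT and shrank for the others. With mock replicate 2 left out, 13 of the 14 falls passed. Depth limits low genes, and 2 replicates per arm limit small changes; what is behind the shifts below was not tested. With no filter on low counts 1157 genes passed (748 higher, 409 lower), with 615 higher and 264 lower off the 3 lists. DESeq2 called 577, 59 of them lower off the lists. Without 1 replicate, calls ran from 587 to 1509 (422 to 705 higher, 165 to 804 lower), off the lists from 316 to 578 higher and 88 to 640 lower, and beside p53-list genes from 18 to 21 higher. For the counts over all genes and off the lists, the low end came without irradiated replicate 2 and the high end without mock replicate 2. The t1 libraries alone gave 3995 calls (2255 higher, 1740 lower; 2110 and 1617 off the lists), the t2 libraries alone 9800 (5038 and 4762; 4866 and 4582), the t number as a covariate 313 (260 and 53; 168 and 7), and the average of t1 and t2 over 8 libraries 1291 (778 and 513; 641 and 369). The fits on unsummed libraries treat libraries of 1 replicate number as independent. Without the mock replicate 2 t2 library 211 genes passed (178 and 33; 106 and 0), with 11 beside p53-list genes. With the replicate block 2332 genes passed (1234 and 1098; 1081 and 912), but the labels give only a shared number and the single correlation of same-numbered deviations was 0.20. The average of t1 and t2 and the fit without the mock library were added after seeing the data.

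For the difference between batches, no filter gave 119 calls (66 higher, 53 lower), the replicate block 96 (66 and 30), t1 libraries alone 452 (258 and 194) and t2 libraries alone 5646 (2998 and 2648). Without 1 replicate there were 21 to 45 (7 to 21 higher, 12 to 24 lower).

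Of the genes named by rule, directions turned at those with small changes and, within t1 or t2, at the called genes FOSB, NFKBIE and TRPM8. Over all off-list calls, 382 of 401 rises and 86 of 96 falls kept their direction in both the t1 and the t2 ratios. With 1 replicate left out, the log2 fold change ran from -0.518 to 0.026 for ATF4, from -0.135 to 0.184 for ME1, from -0.023 to 0.073 for BRCA1, from -0.057 to 0.451 for HSP90AB1, from -0.153 to 0.380 for HEXIM1, from -0.133 to 0.167 for ZFAS1, from -0.018 to 0.411 for GAS5, from -0.294 to 0.096 for MT-RNR2, from -0.355 to 0.000 for EGR1, from -0.148 to 0.190 for CCND1, from -0.153 to 0.026 for ATM and from -0.014 to 0.086 for ATG7. The t1 libraries alone gave 0.017 for FOSB, -0.404 for PRKDC, -0.770 for ME1, -0.021 for ZFAS1, -0.310 for ATG7, -0.227 for ATG5, 0.014 for JUN, 0.197 for FOS, 0.153 for NFKBIA and -0.153 for BRCA1. The t2 libraries alone gave -0.557 for NFKBIE, -0.701 for HSP90AB1, 0.155 for TRPM8, 0.085 for TDP1, 0.120 for TXNRD1, -0.656 for HEXIM1, 0.171 for AFF1, -0.088 for GAS5, -0.248 for APOBEC3A, 0.515 for MT-RNR2, 0.563 for MT-ND5, 0.097 for KLK3, 0.423 for ATM and -0.208 for CCND1. The t number as a covariate gave -0.024 for HEXIM1 and -0.038 for CCND1. The average of t1 and t2 gave -0.027 for HEXIM1 and -0.037 for CCND1. Mock replicate 2 from its t1 library gave -0.171 for ME1, -0.020 for ZFAS1, -0.052 for ATG7 and -0.034 for BRCA1. The planned gene length check was not run.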
